A study of Homo sapiens with 10 samples.

Results

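The genes described here are 10 inflammatory chemokines, CCL2, CCL20, CXCL1, CXCL2, CXCL3, CXCL5, CXCL6, CXCL8, CXCL10 and CXCL11, out of 22432 named genes measured in 786-O cells, a cultured clear-cell renal carcinoma line without functional VHL. They were chosen by name, through current symbols and older aliases, and all 10 had 1 probe set in each of 2 deposited tables. The tables were recorded under 2 different array platforms. The ZHX2 table held 3 groups of 2 arrays, cells with ZHX2 hairpin 45, cells with ZHX2 hairpin 44 and cells with a scrambled hairpin. The p65 table held 2 groups of 2 arrays, cells with a short hairpin RNA (shRNA) against p65 and cells with a control shRNA. All groups were infected with lentivirus and selected with puromycin at 2 ug/ml, and the labels name no stimulus such as a cytokine. Each hairpin was delivered to 1 cell line, and the labels do not say how the scrambled and control hairpins relate or whether the 2 arrays of a group came from separate cultures. The p-values thus cover the spread between these arrays alone, and that spread may be technical.

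Chemokines are small secreted proteins that draw leukocytes along a gradient by engaging G protein-coupled receptors. CCL2 acts on monocytes through CCR2, and CCL20 acts on CCR6-bearing lymphocytes and dendritic cells. CXCL1, CXCL2, CXCL3, CXCL5, CXCL6 and CXCL8 share a glutamate-leucine-arginine motif and draw neutrophils through CXCR1 and CXCR2, while CXCL10 and CXCL11 draw activated T cells through CXCR3. Many of these genes are classical targets of NF-kB, of which p65, encoded by RELA, is a transactivating subunit, and interferons also induce CXCL10 and CXCL11. ZHX2 is a zinc-finger and homeobox protein, and the comparison with p65 bears on the question of whether its targets in these VHL-lacking cells include NF-kB target genes.

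The targeted genes were lower in the cells that carried their hairpins. ZHX2 had log2 signals of 8.93 and 9.02 in hairpin 45 cells and 9.35 and 9.38 in hairpin 44 cells, compared to 10.58 and 10.43 in scrambled cells. RELA had 5.04 and 5.28 with p65 shRNA, against 7.64 and 7.67 with control shRNA, and the groups did not overlap for either gene. The log2 change of RELA was -2.50 (limma adjusted p = 0.0733), and with the variance prior of limma following signal intensity it passed the test (adjusted p = 0.00132). The median signal of an array was 6.15 to 6.22 in the ZHX2 table but 1.87 to 1.89 in the p65 table, so no level was compared between the tables. Each of 9 measured renal tubular carcinoma markers was averaged over all arrays of a table. By this mean, 9 lay above the median of the named genes in the ZHX2 table and 8 in the p65 table.

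The sequences upstream of the chemokine genes were read from the RefSeq promoter table (GRCh38.p14), which matched 9 of the 10 genes. A stretch of 180 bases before the annotated start is shown for 4 of them, since they carry nearly the same NF-kB-type letters and did not move alike in the 2 knockdowns. CXCL8 (chr4:73740389-73740568, plus strand) and CXCL10 (chr4:76023498-76023677, minus strand) were called lower with both ZHX2 hairpins. CXCL5 (chr4:73998678-73998857, minus strand) and CXCL2 (chr4:74099196-74099375, minus strand) were not. Capitals mark matches to the NF-kB consensus or to the 9-base core GGAATTTCC on either strand, and the sequences run 5′ to 3′ on the strand of the gene.
CXCL8: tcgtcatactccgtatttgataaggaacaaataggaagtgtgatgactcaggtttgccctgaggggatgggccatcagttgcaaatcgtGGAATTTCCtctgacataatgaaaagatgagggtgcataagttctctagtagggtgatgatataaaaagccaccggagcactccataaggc
CXCL10: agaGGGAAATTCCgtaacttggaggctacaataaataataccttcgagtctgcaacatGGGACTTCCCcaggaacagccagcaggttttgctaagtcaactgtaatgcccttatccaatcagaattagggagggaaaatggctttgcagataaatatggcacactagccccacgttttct
CXCL5: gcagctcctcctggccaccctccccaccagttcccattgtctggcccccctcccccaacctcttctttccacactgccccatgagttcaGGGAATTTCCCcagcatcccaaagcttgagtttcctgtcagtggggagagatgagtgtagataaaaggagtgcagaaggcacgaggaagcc
CXCL2: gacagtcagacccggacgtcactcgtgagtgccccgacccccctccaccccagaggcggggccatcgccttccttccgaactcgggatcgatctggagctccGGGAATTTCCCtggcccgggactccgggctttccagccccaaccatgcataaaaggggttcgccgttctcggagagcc

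Over the 250 bases before the start, 8 of the 9 chemokine windows held the NF-kB consensus, against 9.95% of 34943 RefSeq windows of the same length. The core GGAATTTCC, a stretch picked after these promoters were seen, also stood in 8 of the 9 windows, against 0.415% of all windows. The 2 motifs overlapped wherever a window held both, which was in CXCL1, CXCL2, CXCL3, CXCL5, CXCL6, CXCL10 and CXCL11. CXCL8 held the core alone, between 91 and 83 bases before its start, and CCL20 held the consensus alone, between 79 and 70 bases before its start. In CXCL10 the consensus matched at 177 to 168 and at 122 to 113 bases before the start, with the core inside the farther match. The AP-1 motif TGANTCA was found in CXCL8 and CXCL11 (6.59% of all windows), an interferon-response motif, a tandem GAAA repeat, in CXCL10 (3.02%) and the C/EBP motif TTGCNNAA in CXCL2 (9.06%), with both strands searched in each case. Some promoters of the CXCL8 cluster resembled each other, with 85.6% identical bases over 250 between CXCL5 and CXCL6, 84.0% between CXCL1 and CXCL3, 78.8% between CXCL1 and CXCL2 and 78.0% between CXCL2 and CXCL3. The promoter of CXCL8, in the same cluster, had 47.6% to 51.2% identical bases with the other 5. Pairs of genes that share no cluster had 45.6% (CXCL1 with CXCL10) to 57.6% (CXCL8 with CCL20, on another chromosome). Bases were counted after alignment with gaps, and values of this size thus show no particular likeness. The core thus lay before genes that were called in the knockdowns and before genes that were not. A match describes letters only, and the lack of one says only that those letters are not in the window.

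**Figure D1:**
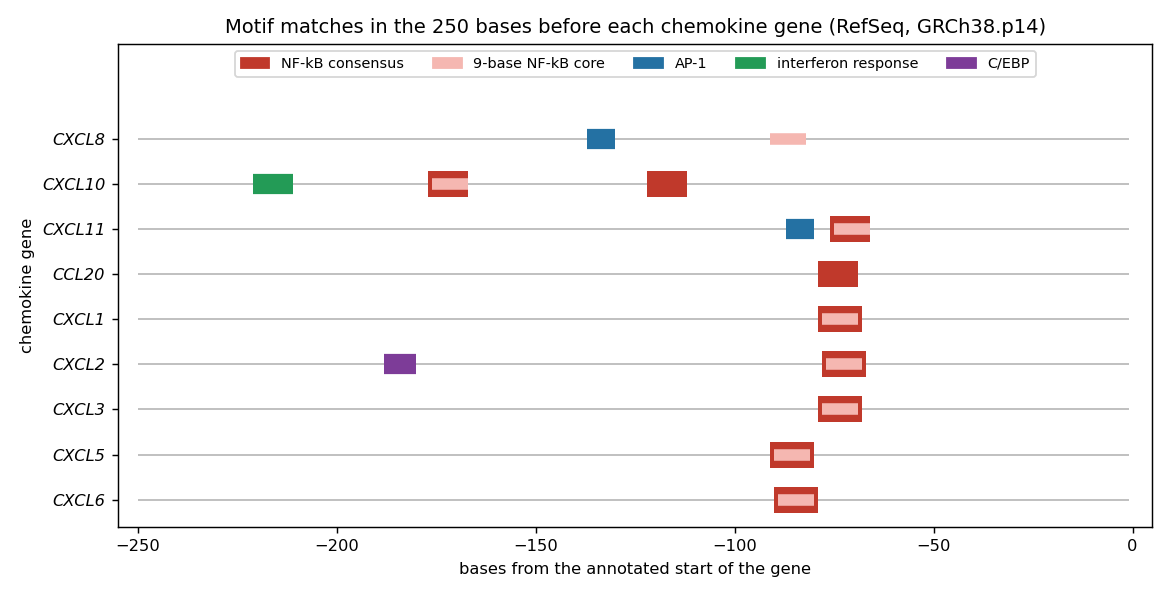
Motif matches in the 250 bases before the annotated start of 9 chemokine genes (x axis, bases from the start; 1 line per gene). Dark red boxes are NF-kB consensus matches and pale boxes the 9-base core, which lie between 91 and 67 bases before the start in every gene but CXCL10, where the core lies at 176 to 168 bases.

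Knockdown of ZHX2 lowered 3 of the 10 chemokines, the monocyte attractant CCL2, the neutrophil attractant CXCL8 and the T cell attractant CXCL10, each to between 18.4% and 21.0% of its signal in scrambled cells. With both hairpins averaged, 3 of 10 were called lower and 0 higher at a limma adjusted p under 0.05, where 6.41% of all genes tested were called lower and 11.9% higher. The same 3 genes were the members whose hairpin arrays all lay below both scrambled arrays, a pattern shown by 16.4% of all genes. These 3 and CXCL1 were more than 2-fold lower, 4 of 10, as were 0.544% of all genes, and CXCL1 did not pass the test. The median log2 change was -0.12 over the 10 chemokines and -0.0043 over all genes. The other 7 were not called in either direction. Of the 10, 5 had a mean signal at or above the 40th percentile of probe sets in the ZHX2 table (CCL2, CXCL1, CXCL2, CXCL5 and CXCL8).

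CCL2 (probe set 16833204), the attractant of monocytes, had log2 signals of 8.47 and 8.10 in hairpin 45 cells and 8.63 and 8.66 in hairpin 44 cells, compared to 10.79 and 10.66 in scrambled cells. All 4 hairpin arrays were lower than both scrambled arrays by more than the gap between any 2 arrays of a group. The mean of both hairpins was lower by a log2 change of -2.25 (SE 0.115, limma adjusted p = 0.00094), which left 21.0% of the scrambled signal.

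CXCL8 (probe set 16967771), the interleukin-8 gene and the best known neutrophil attractant, had signals of 6.46 and 6.71 in hairpin 45 cells and 6.34 and 6.07 in hairpin 44 cells, compared to 8.82 and 8.85 in scrambled cells. The scrambled arrays were nearly identical and stood well above the others. The log2 change of the mean was -2.44 (SE 0.111, limma adjusted p = 0.000733), the 6th largest fall of the 22432 genes, with 18.4% of the scrambled signal left.

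CXCL10 (probe set 16977052), the interferon-inducible ligand of CXCR3, had signals of 4.14 and 4.46 in hairpin 45 cells and 4.12 and 4.47 in hairpin 44 cells, compared to 6.97 and 6.49 in scrambled cells. Its hairpin arrays lay well below the array median and its scrambled arrays slightly above it. The log2 change of the mean was -2.43 (SE 0.180, limma adjusted p = 0.00191), the 8th largest fall, with 18.5% of the scrambled signal left. Averaged over the table it lay below the 40th percentile of probe sets. Its hairpin signals were close to those of MS4A1, a B cell gene, at 4.15 to 4.63 on the same arrays. Of other leukocyte genes, PTPRC lay lower on these arrays, at 3.66 to 3.95, and ITGAM higher, at 4.86 to 5.31. With no detection measure, the signal left was not told apart from background. CCL2, at a higher signal, ranked 12th among the falls, and the calls of all 3 genes held with each of the 6 arrays left out in turn.

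**Figure D2:**
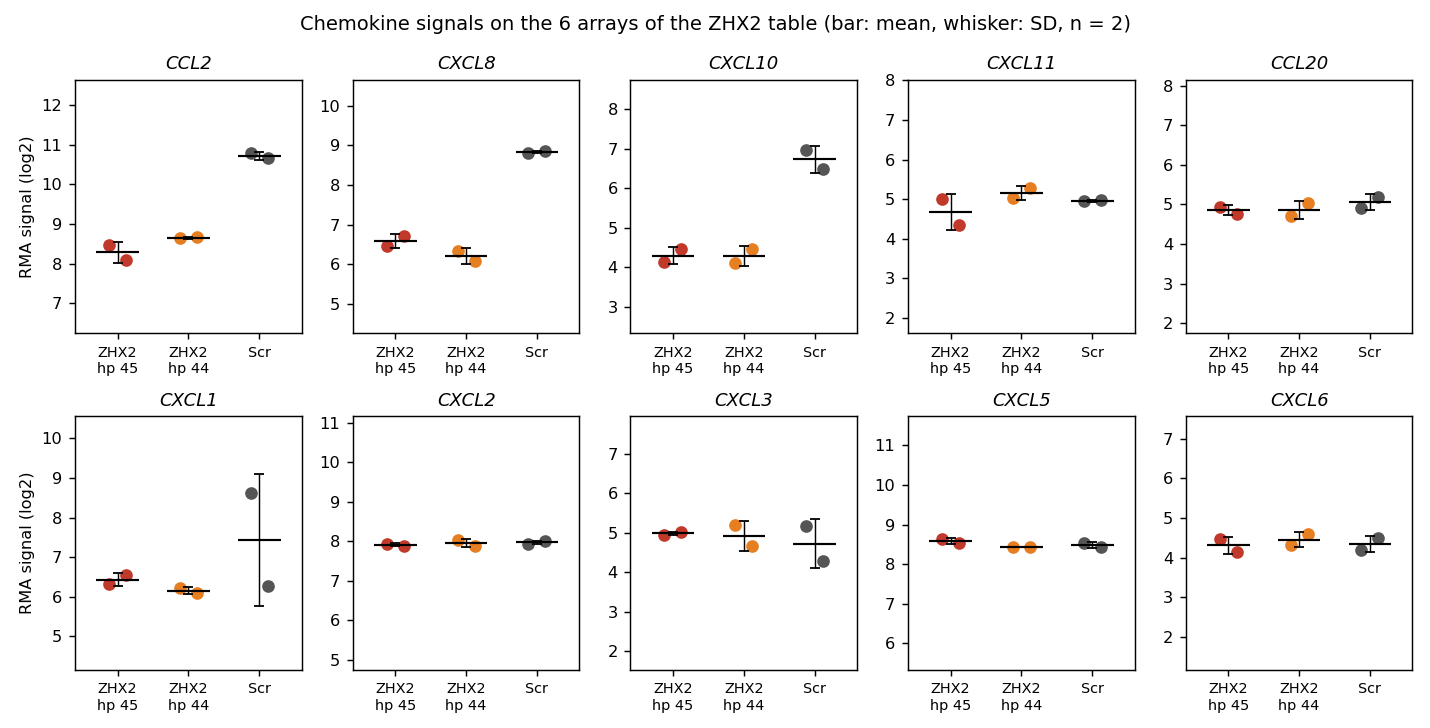
Log2 RMA signal of each chemokine on the 6 arrays of the ZHX2 table (points, arrays; bar and whisker, mean and SD, n = 2), for hairpin 45, hairpin 44 and the scrambled hairpin (Scr). CCL2, CXCL8 and CXCL10 separate the hairpin arrays from the scrambled arrays, and the 2 scrambled arrays of CXCL1 stand apart at 8.62 and 6.27.

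The other ligands of CXCR1 and CXCR2 were not called. CXCL2 (probe set 16976844) had 7.94 and 7.89 in hairpin 45 cells and 8.03 and 7.88 in hairpin 44 cells, compared to 7.94 and 8.0 in scrambled cells, and CXCL5 (probe set 16976827) had 8.64 and 8.54 in hairpin 45 cells and 8.42 and 8.43 in hairpin 44 cells, compared to 8.53 and 8.44 in scrambled cells. Both genes were well above the array median, and the 4 hairpin arrays as a whole overlapped the scrambled arrays. By small margins, both hairpin 45 arrays of CXCL5 lay above the scrambled arrays and both hairpin 44 arrays below them, and both hairpin 45 arrays of CXCL2 lay below. The 95% interval of the mean change ran from -0.217 to 0.141 for CXCL2 and from -0.146 to 0.195 for CXCL5, which leaves out falls of the size seen for CXCL8. CXCL3 and CXCL6, both dimmer genes of the same cluster, changed by 0.23 (95% interval -0.429 to 0.884) and 0.03 (-0.320 to 0.382). Near-identical copies such as CXCL1, CXCL2 and CXCL3 could share hybridising RNA, and the cross-hybridisation of their probe sets was not tested.

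CXCL1 (probe set 16967794), the growth-regulated alpha chemokine, had signals of 6.32 and 6.55 in hairpin 45 cells and 6.21 and 6.10 in hairpin 44 cells, compared to 8.62 and 6.27 in scrambled cells. The first scrambled array was far above the rest, while the second lay among the hairpin arrays. The difference of 2.35 between the 2 scrambled arrays was the largest of all 22432 genes. The log2 change of the mean was -1.14 (SE 0.598, limma adjusted p = 0.254). Without scrambled replicate 2 it was -2.32 (adjusted p = 0.0144), and without scrambled replicate 1 it was 0.03 (adjusted p = 0.889), so 1 array decided whether CXCL1 joined the called genes. CXCL3 also differed between the scrambled arrays, at 5.17 and 4.28, with the first again the higher. CXCL10 did so by less, at 6.97 and 6.49, whereas CXCL8 and CXCL2 did not (8.82 and 8.85, 7.94 and 8.0).

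CXCL11 and CCL20 were not called, and the 4 hairpin arrays as a whole overlapped the scrambled arrays, although both hairpin 44 arrays of CXCL11 lay above them. CXCL11, the CXCR3 ligand next to CXCL10 on the chromosome, had 5.0 and 4.36 in hairpin 45 cells and 5.02 and 5.28 in hairpin 44 cells, compared to 4.94 and 4.98 in scrambled cells. Its mean change of -0.05 had a 95% interval from -0.497 to 0.400. Its scrambled signals lay below the array median and not far above the 4.12 to 4.47 of CXCL10 in hairpin cells. A fall of the size of the CXCL10 change may thus not be detectable, and the interval does not set the 2 genes apart. CCL20, the ligand of CCR6, had 4.95 and 4.77 in hairpin 45 cells and 4.70 and 5.03 in hairpin 44 cells, compared to 4.91 and 5.20 in scrambled cells, a change of -0.20 (limma adjusted p = 0.370). Both genes were below the 40th percentile of the table.

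Each hairpin was also set against scrambled cells on its own, with the 2 scrambled arrays shared between these comparisons. Hairpin 45 gave 3 of 10 chemokines called lower and 0 higher, where 7.11% of all genes were called lower and 13.0% higher. Hairpin 44 also gave 3 and 0, where 2.84% were called lower and 4.81% higher. CCL2 changed by -2.44 with hairpin 45 (limma adjusted p = 0.000858) and by -2.07 with hairpin 44 (adjusted p = 0.00500). CXCL8 changed by -2.25 with hairpin 45 (adjusted p = 0.000956) and by -2.63 with hairpin 44 (adjusted p = 0.00404), where it was the largest fall of all genes. CXCL10 changed by -2.43 with either hairpin (adjusted p = 0.00238 with hairpin 45 and 0.00681 with hairpin 44). With 1 hairpin 44 array left out, the calls of CCL2 and CXCL10 for that hairpin were lost (adjusted p = 0.0663 for both genes without replicate 1, and 0.0633 and 0.0648 without replicate 2), although the changes stayed between -2.61 and -2.06.

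The hairpins were then compared with each other. Of the 10 chemokines 0 were called between hairpin 45 and hairpin 44 (limma, with 0.397% of all genes called), and at an unadjusted p under 0.05 CCL2 and CXCL8 were, in opposite directions, as were 6.74% of all genes in the lower and 8.35% in the higher direction. CCL2 was lower with hairpin 45, by a log2 difference of -0.36 (95% interval -0.690 to -0.0377, limma adjusted p = 0.291), and CXCL8 was higher, by 0.38 (95% interval 0.0635 to 0.692, adjusted p = 0.263). The difference for CXCL10 was 0.01 (95% interval -0.505 to 0.518). ZHX2 itself was lower with hairpin 45 by -0.39 (adjusted p = 0.152).

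In cells with p65 shRNA, CCL2 showed the largest change of the 10 chemokines. In the p65 table limma called 0 of 22432 genes, 0% in either direction, at an adjusted p under 0.05, while 7.95% of genes were lower and 6.39% higher at an unadjusted p under 0.05. With the intensity trend, 3 of 10 chemokines were called lower and 0 higher, where 2.49% of all genes were called lower and 1.37% higher, and these were CCL2, CXCL5 and CXCL8. The median log2 change was -0.18 over the 10 chemokines and 0.0069 over all genes. The p65 arrays did not overlap the control arrays for 4 chemokines that were lower (22.7% of all genes) and 3 that were higher (23.4%).

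CCL2 had signals of 2.83 and 4.19 with p65 shRNA, against 8.38 and 7.65 with control shRNA. Both p65 arrays lay far below both control arrays, although they differed from each other by 1.37. The log2 change of -4.50 was the largest fall of all genes and left 4.41% of the control signal (SE 0.499, limma adjusted p = 0.0733; SE 0.420 and adjusted p = 0.00301 with the intensity trend). With the trend, the call held with each of the 4 arrays left out in turn, a fit chosen after seeing the data (adjusted p between 0.00240 and 0.0390). Each such fit leaves 1 array in a group and 1 residual degree of freedom, so the lone array is assumed to vary like the other group.

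CXCL5, the epithelial-derived neutrophil attractant, had 5.44 and 5.95 with p65 shRNA, against 7.50 and 8.63 with control shRNA. It was the 10th largest fall, at -2.37 (SE 0.412, limma adjusted p = 0.115; adjusted p = 0.0105 with the intensity trend). CXCL8 had 4.32 and 4.18 with p65 shRNA, against 5.19 and 5.34 with control shRNA, and both groups were tight. Its change was -1.01 (SE 0.174, limma adjusted p = 0.113; adjusted p = 0.0346 with the intensity trend), with 49.7% of the control signal left. With the trend and 1 array left out, the CXCL5 call was lost without either p65 array (adjusted p = 0.129 without replicate 1 and 0.0537 without replicate 2) and the CXCL8 call was lost without any of the 4 arrays (adjusted p between 0.0545 and 0.209).

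CXCL1 and CXCL2 had higher signals with p65 shRNA, though neither was called. CXCL1 had 2.78 and 2.11 with p65 shRNA, against 1.21 and 0.82 with control shRNA, a change of 1.43 (limma adjusted p = 0.139; adjusted p = 0.0516 with the intensity trend). CXCL2 had 3.44 and 4.31 with p65 shRNA, against 2.86 and 3.04 with control shRNA, a change of 0.92 (adjusted p = 0.295; adjusted p = 0.226 with the intensity trend). In both genes each p65 array was above each control array. The control arrays of CXCL1 lay below the array median, where a signal may be background, so the size of its change is uncertain.

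The CXCR3 ligands were dim in the p65 table, near or below the array medians. CXCL10 had 1.67 and 1.53 with p65 shRNA, against 1.56 and 1.16 with control shRNA, and CXCL11 had 1.79 and 2.36 with p65 shRNA, against 1.91 and 2.17 with control shRNA. The groups overlapped, with changes of 0.24 for CXCL10 (95% interval -0.285 to 0.759) and 0.03 for CXCL11 (-0.603 to 0.667). CXCL10 was below the 40th percentile of probe sets here, and so was CXCL6, at 1.33 and 1.81 with p65 shRNA against 1.08 and 1.29 with control shRNA, while the other 8 chemokines were at or above it on the mean over both groups. A fall from such a signal may not be detectable on these arrays. CCL20 (2.25 and 2.07 with p65 shRNA, against 2.59 and 2.52 with control shRNA) changed by -0.40, and CXCL3 (1.88 and 1.34 with p65 shRNA, against 1.58 and 2.41 with control shRNA) by -0.38, and neither was called.

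**Figure D3:**
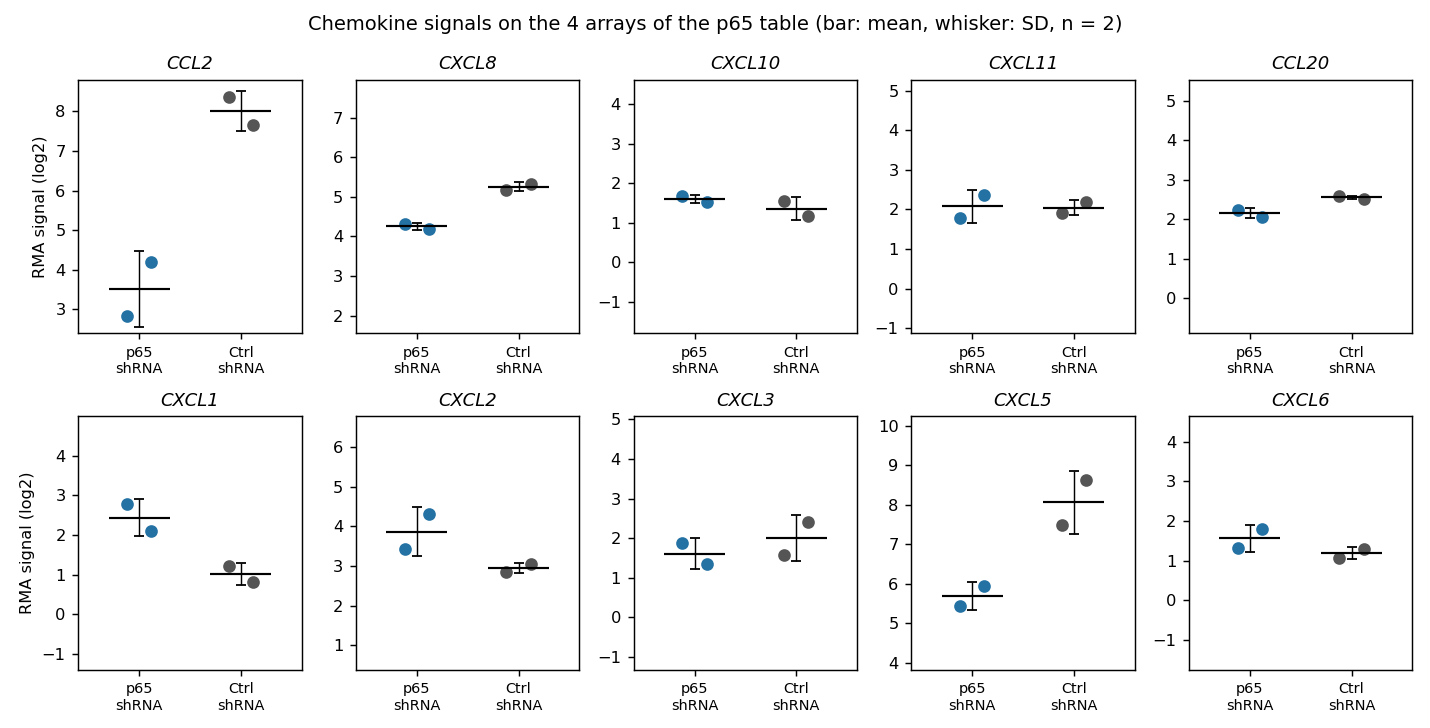
Log2 RMA signal of each chemokine on the 4 arrays of the p65 table (points, arrays; bar and whisker, mean and SD, n = 2), for p65 shRNA and control shRNA (Ctrl). CCL2, at 2.83 and 4.19 against 8.38 and 7.65, and CXCL5 show the widest separation, and CXCL1 and CXCL2 lie higher with p65 shRNA.

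Side by side, CCL2 and CXCL8 were the 2 chemokines called lower in both knockdowns, with the p65 calls resting on the intensity trend. CCL2 changed by -4.50 with p65 shRNA and -2.25 with the ZHX2 hairpins, and CXCL8 by -1.01 with p65 shRNA and -2.44 with the ZHX2 hairpins. CXCL10 was called only in the ZHX2 table (0.24 with p65 shRNA, -2.43 with the ZHX2 hairpins). Its mean signal in the p65 table was below the 40th percentile of probe sets, where a fall may not be detectable. CXCL5 was called only in the p65 table (-2.37 with p65 shRNA, 0.02 with the ZHX2 hairpins). The p65 calls of CXCL5 and CXCL8 were not stable when an array was left out. The 2 tables were recorded under different array platforms, differ in signal scale and in fit, and each has its own control arrays. Knockdown and platform thus cannot be told apart here, and the difference between the knockdowns was not tested.

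**Figure D4:**
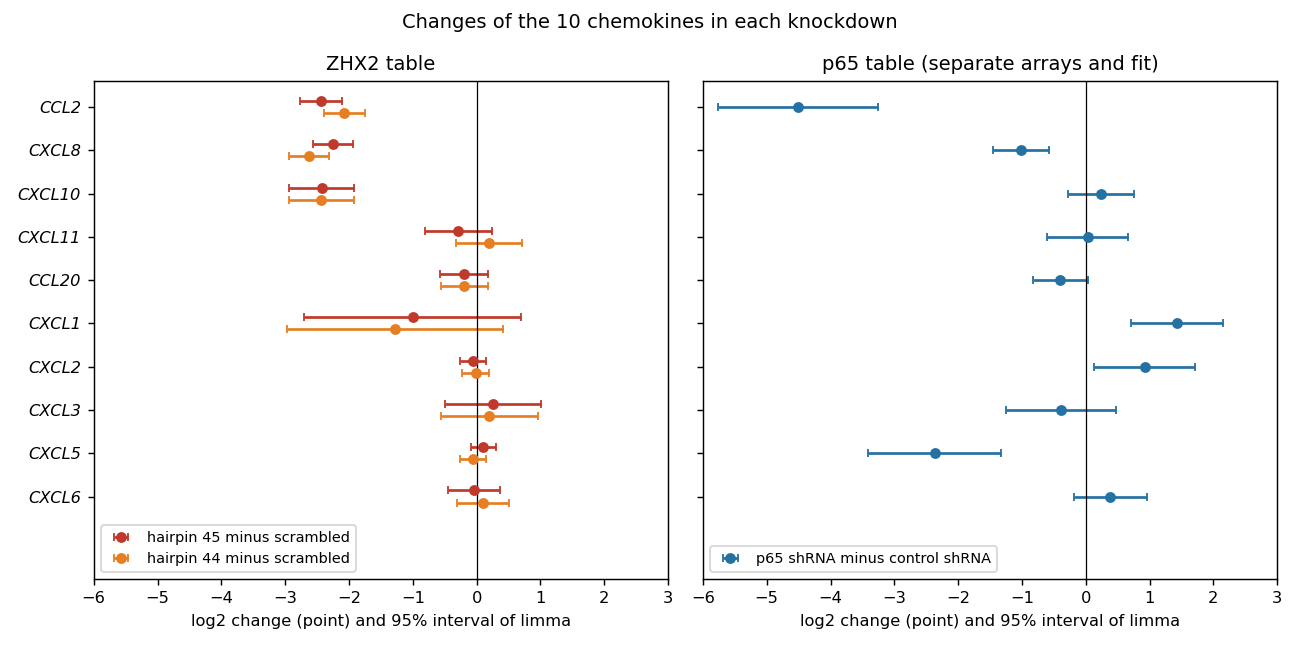
Log2 change (points) with the 95% interval of limma (whiskers) of the 10 chemokines, for hairpin 45 and hairpin 44 against scrambled cells (left) and for p65 shRNA against control shRNA (right). CCL2 lies below 0 in all 3 comparisons, CXCL10 in both ZHX2 comparisons with p65 at 0.24, and CXCL5 near 0 with the ZHX2 hairpins and at -2.37 with p65 shRNA.

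Most neighbours of the called chemokines were not called with them. Over all genes, 6.41% were called lower with the ZHX2 hairpins and 11.9% higher, so most genes of any stretch would be uncalled. Several neighbours had mean scrambled signals well below the array median, such as CXCL9 (4.61), CCL7 (4.81), CCL11 (4.03) and CCL8 (3.43). A fall in these may not be detectable. Others lay above it, such as PF4 (7.24) and EREG (11.29). Regulation of single genes within a cluster was not tested. On chromosome 4, CXCL8, CXCL6, CXCL1, CXCL5, CXCL3 and CXCL2 lie in 1 cluster with PF4V1, PF4, PPBP and PPBPP2, and of the measured genes from AFM to EREG CXCL8 was the one called with the ZHX2 hairpins. CXCL10 and CXCL11 lie in a second cluster with CXCL9, another interferon-inducible CXCR3 ligand, which changed by -0.02 (limma adjusted p = 0.940). ART3, which lies between CXCL9 and CXCL10, changed by 0.02. Beside them, SDAD1, a gene of ribosome assembly, was higher with the hairpins by 0.83 (adjusted p = 0.00266), and the nuclear pore gene NUP54 by 0.38 (adjusted p = 0.0385), a call that held in 1 of 6 fits with 1 array left out. On chromosome 17, the neighbours of CCL2, the related chemokines CCL7, CCL11 and CCL8, changed by 0.25, 0.20 and -0.14 and were not called, and of the neighbours of CCL20 on chromosome 2 none was called.

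**Figure D5:**
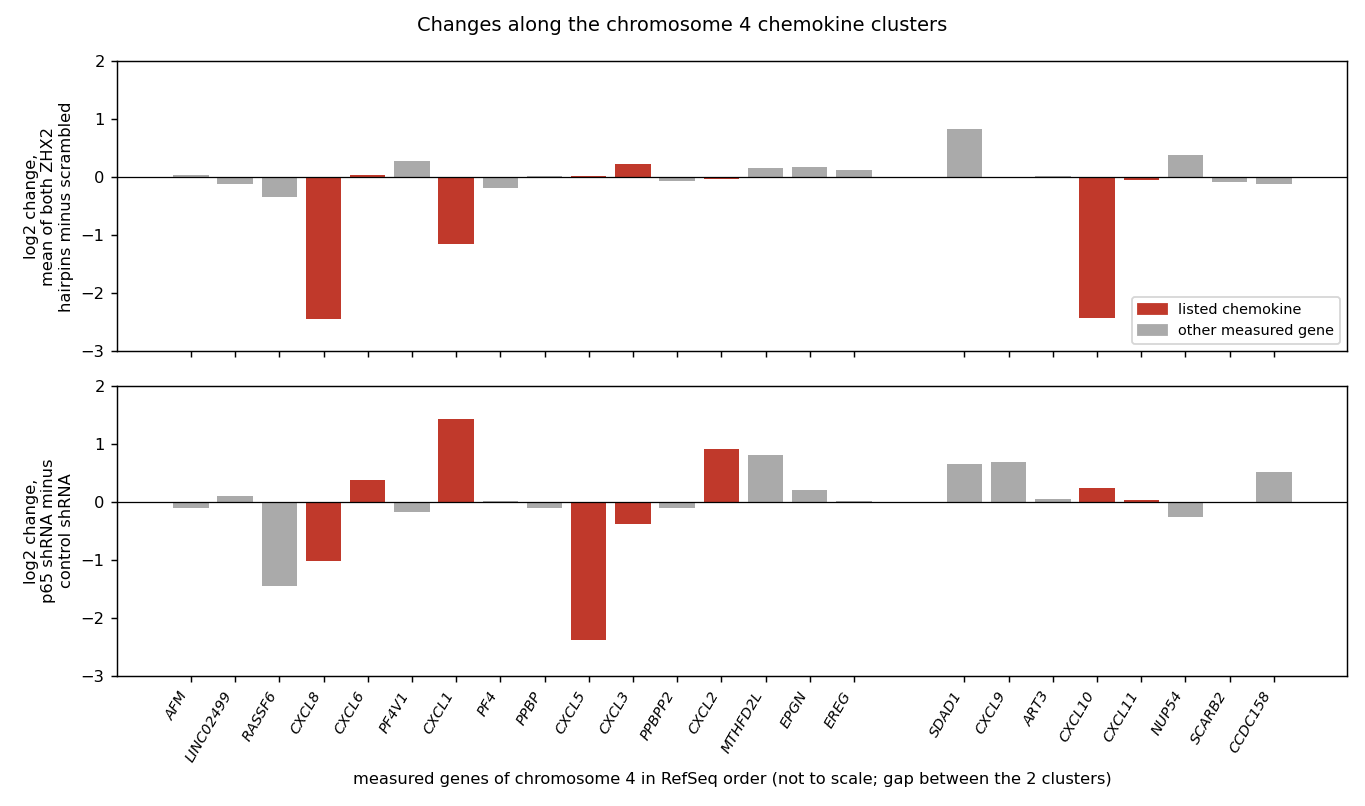
Log2 change of each measured gene along 2 chromosome 4 chemokine clusters in RefSeq order (x axis, not to scale), for the mean of both ZHX2 hairpins against scrambled cells (top) and p65 shRNA against control shRNA (bottom). Red bars are listed chemokines, and with the ZHX2 hairpins CXCL8 and CXCL10 stand at -2.44 and -2.43. CXCL2 and CXCL5, in the cluster of CXCL8 and well above the array median, stand at -0.04 and 0.02. CXCL6 at 0.03 and CXCL11 at -0.05 had mean signals below the 40th percentile of probe sets, where a fall may not be detectable.

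Over all protein-coding genes, the pattern of CXCL8 across the 6 ZHX2 arrays (log2 signal minus the scrambled mean) was closest to that of CFI, the complement factor I gene, at a Euclidean distance of 0.631 log2 units. CXCL10 (0.683), the interferon-induced IFI44L (0.906), CCL2 (0.968) and PLXDC2 (1.14) followed. For CXCL10 the same 4 other genes and CXCL8 were the 5 closest, at 0.520 for CFI, 0.683 for CXCL8, 0.717 for IFI44L, 0.782 for CCL2 and 0.862 for PLXDC2. The p65 changes of these genes ran both ways, at 0.99 for CFI, -1.06 for IFI44L and 0.70 for PLXDC2, of which none was called in either fit. The distance follows the size of the change as well as its pattern.

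The remaining chemokines and the receptors were read against the shares over all genes, 6.41% lower and 11.9% higher with the ZHX2 hairpins. Of 29 measured other chemokines 1 was called lower, the mucosal chemokine CCL28, by a log2 change of -0.40 (limma adjusted p = 0.0121), and 0 were called higher. Several had mean scrambled signals far below the array median, such as CCL8 (3.43), PPBP (4.01) and CCL11 (4.03), where a fall may not be detectable. Others lay above it, such as CCL28 (7.81) and CX3CL1 (8.30). Of 20 measured chemokine receptors 0 were lower and 1 was higher, the scavenging receptor ACKR3, at 0.38 (adjusted p = 0.0144). CCL28 did not pass without scrambled replicate 2 (adjusted p = 0.0589), and the ACKR3 call held in 2 of 6 fits with 1 array left out. PF4V1 (0.28, adjusted p = 0.0650), CX3CL1 (-0.25, adjusted p = 0.0666), CCL25 (-0.26, adjusted p = 0.111), CXCR4 (0.41, adjusted p = 0.0669), CCRL2 (0.38, adjusted p = 0.115) and ACKR1 (-0.37, adjusted p = 0.125) were among those that did not pass. The median change was -0.07 over these chemokines and 0.02 over the receptors. With p65 shRNA and the intensity trend, 0 genes of either list were called. CCL28 (0.66, adjusted p = 0.161 with the trend), CXCL16 (0.48, adjusted p = 0.459), CCRL2 (0.99, adjusted p = 0.152) and CXCR5 (0.73, adjusted p = 0.190) had the smallest p in the fit without it.

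Of the genes that induce chemokines and their receptors, 4 of 21 were called lower with the ZHX2 hairpins and 0 higher, where 6.41% of all genes were called lower and 11.9% higher. IL1R1, the receptor for interleukin-1, had signals of 8.48 and 8.29 in hairpin 45 cells and 8.87 and 8.88 in hairpin 44 cells, compared to 9.98 and 9.71 in scrambled cells, a change of -1.22 (SE 0.101, limma adjusted p = 0.00231). Its groups did not overlap. The cytokine genes TNF and IL6 changed by -0.47 (adjusted p = 0.0142) and -0.44 (adjusted p = 0.0369), and TLR3, a sensor of double-stranded RNA, by -0.48 (adjusted p = 0.0202). With each array left out in turn, the IL1R1 call held in 6 of 6 fits, the TNF call in 4, and the TLR3 and IL6 calls in 1 each. With p65 shRNA and the intensity trend 1 of 21 was called lower, where 2.49% of all genes were. This was IL6 at -1.55 (adjusted p = 0.0312), with signals of 3.12 and 3.12 with p65 shRNA, against 4.31 and 5.03 with control shRNA, and its call held in 1 of 4 fits with 1 array left out. IFNGR1, the interferon-gamma receptor, was at -0.53 and not called (adjusted p = 0.236 with the trend).

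Of 23 measured transcription factors known to act at chemokine promoters, 8 were called lower and 3 higher with the ZHX2 hairpins, against shares of 6.41% lower and 11.9% higher over all genes. NFKBIZ, a nuclear NF-kB cofactor, was lower at 8.78 and 8.92 in hairpin 45 cells and 10.27 and 10.28 in hairpin 44 cells, compared to 10.91 and 10.89 in scrambled cells, a mean change of -1.34 (limma adjusted p = 0.00094). Hairpin 45 stood lowest in that gene, with a log2 difference of -1.43 from hairpin 44, the lowest of the 23 factors. Between hairpin 45 and hairpin 44, 1 of the 23 was called lower (0.397% of all genes called in either direction). The immediate-early factor EGR1 (-1.29), CEBPD (-0.92), the interferon-signalling factors IRF9 (-0.76) and IRF7 (-0.40), the NF-kB cofactor BCL3 (-0.73) and the AP-1 subunits JUNB (-0.72) and JUND (-0.51) were also lower. The AP-1 subunits FOSL1 (1.06) and JUN (0.50) and RELA (0.44) were higher. With each array left out in turn, these calls held in 6 of 6 fits, other than those of JUND (3 of 6), IRF7 (1 of 6) and RELA, which was lost without scrambled replicate 2 (limma adjusted p = 0.0554). With p65 shRNA and the intensity trend 1 was lower, RELA, which is the target of the shRNA, so its fall is no result about the list. No other member was called lower. FOSL2 was the 1 called higher, at 0.74 (limma adjusted p = 0.0222). Over all genes, 2.49% were lower and 1.37% higher. The RELA call held in 4 of 4 fits with 1 array left out, and the FOSL2 call was lost without either p65 array (adjusted p up to 0.213).

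Among 10 genes of mRNA decay and feedback, 5 were lower and 3 higher with the ZHX2 hairpins, where 6.41% of all genes were lower and 11.9% higher. The deubiquitinase TNFAIP3 changed by -0.98, the mRNA-destabilising ZFP36, ZC3H12A and ZFP36L1 by -0.49, -0.47 and -0.32, and the NF-kB inhibitor NFKBIA by -0.40. ZFP36L2 (0.47), the phosphatase DUSP1 (0.43) and the RNA-stabilising ELAVL1 (0.37) were higher. The calls of TNFAIP3 and ZFP36 held in 6 of 6 fits with 1 array left out, those of DUSP1 and ZC3H12A in 4, those of NFKBIA, ZFP36L2 and ELAVL1 in 1 each, and that of ZFP36L1 in 0. With p65 shRNA and the intensity trend 2 of 10 were lower, TNFAIP3 at -1.51 (limma adjusted p = 0.0118) and NFKBIA at -0.97 (adjusted p = 0.00757), and 0 were higher, where 2.49% and 1.37% of all genes were. Both calls were lost without either p65 array (adjusted p up to 0.134 for TNFAIP3 and 0.120 for NFKBIA).

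All arrays were labelled as the same cultured carcinoma line. Markers of other cell types were still read, because chemokines are also made by leukocytes, fibroblasts and endothelial cells. In bulk RNA fewer cells of a type and less RNA per cell cannot be told apart. Over all genes, 6.41% were called lower with the ZHX2 hairpins and 11.9% higher. Of 11 measured leukocyte markers 1 was called lower, the lysosomal protein gene CD68 at -0.46. On the mean over all arrays of the table, 2 of the 11 lay above the median of the named genes. The summed signal of the 11, on the log2 scale, was 10.96 to 11.01 on the 4 hairpin arrays, against 11.31 to 11.39 in scrambled cells. CD68 made up 72.0% to 79.0% of this sum, and without it the sum of the other 10 was 9.16 to 9.17 with hairpin 45 and 9.07 to 9.17 with hairpin 44, against 9.14 to 9.22 in scrambled cells. The pan-leukocyte gene PTPRC had 3.66 and 3.73 in hairpin 45 cells and 3.95 and 3.79 in hairpin 44 cells, compared to 3.82 and 3.60 in scrambled cells, all far below the array median. Of 6 fibroblast markers LUM was lower at -0.95, with summed signals of 8.55 to 8.57 with hairpin 45 and 8.60 to 8.64 with hairpin 44, against 8.93 to 8.96 in scrambled cells. Of 8 endothelial markers 0 were called, with sums of 8.82 to 8.96 with hairpin 45 and 8.83 to 8.88 with hairpin 44, against 8.89 to 9.01 in scrambled cells. The renal marker CDH6 had mean signals of 9.04 in hairpin 45 cells and 10.22 in hairpin 44 cells, compared to 11.55 in scrambled cells. Between hairpin 45 and hairpin 44, 1 of 9 renal markers was called lower (0.397% of all genes called in either direction). The CDH6 difference of -1.19 was the lowest of the 9. Of the renal markers CDH6 (-1.92), PAX8 (-0.38) and PAX2 (-0.36) were lower and KRT18 (0.62) higher, of which the CDH6 and PAX8 calls held in 6 of 6 fits with 1 array left out, the KRT18 call in 4 and the PAX2 call in 0. The CD68 and LUM calls held in 6 of 6.

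In the p65 table the leukocyte sum was 8.59 to 8.70 with p65 shRNA, against 8.24 to 8.33 with control shRNA. CD68 made up 87.0% to 91.9% of it, and without CD68 it was 5.08 to 5.15 with p65 shRNA, against 5.05 to 5.29 with control shRNA. PTPRC had 0.76 and 0.78 with p65 shRNA, against 0.95 and 0.72 with control shRNA. The fibroblast sum was 6.52 to 6.65 with p65 shRNA, against 5.78 to 6.75 with control shRNA, and the endothelial sum 4.47 to 4.55 with p65 shRNA, against 4.53 to 4.62 with control shRNA. With the intensity trend 0 genes of these 3 lists were called. Of the 9 renal markers 2 were called lower with the trend and 0 higher, where 2.49% of all genes were called lower and 1.37% higher. The 2 were the cadherin gene CDH2 at -0.57 (limma adjusted p = 0.0184) and the hypoxia factor gene EPAS1 at -0.85 (adjusted p = 0.0445). With 1 array left out, the CDH2 call held in 2 of 4 fits and the EPAS1 call in 1. The part of these markers in the chemokine changes was not tested.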

How the data were processed

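Total RNA of 786-O cells was measured on 10 Affymetrix arrays, in 5 groups of 2 named by the sample titles. The authors deposited log2 signals made by RMA, per the submitters' processing notes, in 2 tables. These were recorded under 2 array platforms but held the same 53617 probe set identifiers. No label or header names the RMA software, its version or a genome build (not given in the sources used here). No detection measure was used. With 2 arrays a group, precision is limited by their number.

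Gene names came from a join of both platform annotations with symbols updated through RefSeq (GRCh38.p14), which gave 24480 probe sets with 1 gene. The probe set of highest mean signal stood for each of 22432 genes. Each table was fitted separately with limma 3.58.1 in R 4.3.3 (lmFit, eBayes), with Benjamini-Hochberg adjustment over all genes and calls at an adjusted p under 0.05. All errors and intervals of changes are those of limma, and the fit was tested on simulated data. No label says that replicate numbers pair the arrays. Deviations of same-numbered arrays correlated between -0.03 and 0.05, which does not show whether they were prepared together.

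The chemokines, the further lists and the tests were chosen with earlier results of these data known. Outside the 10 chemokines, ZHX2 and RELA, the text names the 4 smallest p per gene list for the ZHX2 mean and 2 for p65, the other called list members, the called cell type markers, the 5 genes closest to CXCL8 and to CXCL10, and chromosomal neighbours up to 3 genes beyond each cluster. PTPRC, MS4A1 and ITGAM were added after their values were seen. Promoters came from the RefSeq table.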

Additional observations from a re-analysis of the deposited data

How the results depend on the processing

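The limma fits were repeated with the variance prior following intensity, with robust moderation, after median centring or quantile normalization, without dim probe sets (under the 40th percentile), with probe sets averaged per gene, with array weights, with the replicate number as a block and with each array left out. For the hairpin means against scrambled cells, a fit of only the groups compared holds the same arrays and was not run. Of 668 values of a chemokine under an alternative, 613 kept their direction and their side of the threshold, 39 changed sign, 12 passed the threshold where the reported fit did not and 4 no longer passed it.

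CCL2, CXCL8 and CXCL10 stayed lower in every fit of either hairpin or of both that tested them, and the filter on dim probe sets left CXCL10 out. With 1 array left out, 3 to 4 chemokines were called lower for the mean of the hairpins and for hairpin 45, and 1 to 4 for hairpin 44. The fourth was CXCL1, without scrambled replicate 2, as given in the report. The p65 count was 3 with the intensity trend, 2 with the trend and without either control array, and 1 with the trend and without either p65 array. With the replicate number as a block, a pairing that no label states, 3 chemokines were again called lower for the mean and for each hairpin. For p65 0 were called. The genes called lower with hairpin 44 then numbered 353, against 638 without the block.

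No sign change concerned a called gene, other than CXCL1 as above. In the mean of the hairpins, median centring gave 0.0043 for CXCL2 and quantile normalization -0.0537 for CXCL5. Median centring gave 0.014 for CXCL2 with hairpin 44, 0.0116 for CXCL6 with hairpin 45 and 0.0132 for CCL20 between hairpin 45 and hairpin 44, where quantile normalization gave 0.0201. With 1 array left out, the mean change ran from -2.32 to 0.0307 for CXCL1, -0.21 to 0.67 for CXCL3, -0.0223 to 0.0714 for CXCL5, -0.12 to 0.18 for CXCL6 and -0.21 to 0.11 for CXCL11. With hairpin 44 it ran from -0.0893 to 0.0547 for CXCL2, -0.24 to 0.64 for CXCL3 and -0.0458 to 0.25 for CXCL6. With hairpin 45 it ran from -2.18 to 0.17 for CXCL1, -0.19 to 0.70 for CXCL3, -0.20 to 0.12 for CXCL6 and -0.60 to 0.0335 for CXCL11. Between hairpin 45 and hairpin 44 it ran from -0.17 to 0.15 for CCL20, -0.11 to 0.0308 for CXCL2, -0.21 to 0.32 for CXCL3, -0.30 to 0.0155 for CXCL6 and -0.17 to 0.18 for CXCL10. With p65 shRNA it ran from -0.80 to 0.0296 for CXCL3 and from -0.26 to 0.32 for CXCL11, with or without the trend. With the trend, CXCL3 was 0.0296 without control replicate 2, and CXCL11 was -0.0991 without control replicate 1 and -0.26 without p65 replicate 2. The cause of these changes was not tested.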
